A study of Mus musculus with 12 samples.

Results

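The cytosolic ribosomal protein genes were examined in 2 chromatin immunoprecipitation data sets from mouse microglia, one for Rpb2, a core subunit of RNA polymerase II, and one for histone H3 acetylated at lysine 27 (H3K27Ac), a mark of active promoters and enhancers. Members were the peaks whose assigned gene name begins with Rps or Rpl followed by a digit, together with *Rpsa*, *Rplp0*, *Rplp1* and *Rplp2*, without the Rps6k kinases and without names marked as pseudogenes. They numbered 158 of 26706 peaks in the Rpb2 table, under 78 gene names, and 156 of 55862 peaks in the H3K27Ac table, under 75 names. In all, 68 names occurred in both tables and 85 in either. Peaks were named for the closest annotated transcription start site (TSS), so that a distant peak with a ribosomal protein name can lie inside another gene.

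Microglia were CD11b+CD45lo cells sorted from the brains of 2-mo-old mice on C57BL/6J. The groups were *Cx3cr1*+/+ littermates (WT) and *Cx3cr1* eGFP/eGFP mice (KO), in which eGFP disrupts both copies of the gene for the fractalkine receptor, in every cell and throughout life. Each library came from a pool of 3 mice of the same sex, with 1 female and 1 male pool per genotype and mark, so that n = 2 throughout and sex was balanced by label. In pooled cells, a change in the share of cells that carry a signal and a change in signal per cell cannot be told apart.

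The ribosome is built from a small subunit, which decodes the mRNA, and a large subunit, which forms the peptide bond. Each protein is made in near-equal amounts with the rest, from genes scattered over the chromosomes that are among the most heavily transcribed of most cells. Their mRNAs start with a C followed by an uninterrupted stretch of pyrimidines, the 5′ terminal oligopyrimidine (TOP) tract, through which mTOR signalling and LARP1 control their translation. ETS-family factors, Sp1 and YY1 are known to bind many of these promoters. RNA polymerase II is commonly found just downstream of the TSS, where it pauses, while H3K27Ac lies on the nucleosomes to either side.

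Reads assigned to peaks ranged from 1309593 to 5415932 for Rpb2 and from 3360624 to 13402567 for H3K27Ac. The H3K27Ac library labelled WT female stood apart, with 15.9% of its reads in peaks against 61.1% to 65.3% in the other 3. For Rpb2, Y-linked genes drew 136 reads in the library labelled WT female, 0 in KO female and 214 and 266 in the male libraries, so that the first of these went against its label. Results below are therefore also given without these libraries where that matters. All 10 microglial marker genes examined had an Rpb2 peak within 1000 bp of the TSS, and none of the 5 border macrophage or monocyte, 5 neuronal, 5 astrocytic, 3 lymphocyte or 3 neutrophil markers had one. Among 5 oligodendrocyte and 4 endothelial markers, 1 of each list had such a peak. The *Cx3cr1* TSS itself drew 369 and 462 Rpb2 reads from the WT pools, and 1442 and 623 from the KO pools (log2 fold change -0.10, SE 0.19). The allele keeps this promoter, so the peak does not check the genotype. For H3K27Ac all 10 microglial markers had peaks, none of them centred within 1000 bp of the TSS. Peaks named for other lists were found too, for 4 of 5 border macrophage or monocyte, 4 of 5 oligodendrocyte, 4 of 4 endothelial, 3 of 5 neuronal, 3 of 5 astrocytic, 2 of 3 neutrophil and 1 of 3 lymphocyte markers. Within 1000 bp of the TSS were 1 border macrophage or monocyte, 2 oligodendrocyte and 1 endothelial marker. The first of these had 15.3 and 20.8 CPM in the WT pools but 8.97 and 4.01 in the KO pools, without overlap, and its part in the H3K27Ac results was not tested.

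Long pyrimidine runs at the annotated start were more frequent in ribosomal protein promoters than in all promoters, but most ribosomal protein promoters lacked one. A counted run can lie partly or wholly upstream of the start, so it need not be the transcribed tract. Of 79 genes for core ribosomal proteins, 58 had an entry in the RefSeq promoter table (GRCm38.p6). An unbroken run of at least 8 pyrimidines reaching within 5 bases of the annotated start was present in 20 of these 58 promoters (34.5%), against 9.56% of 17492 promoters of protein-coding genes. The annotated start base itself was C in 21 of 58 (36.2%) against 13.7%. The windows below are a selection from the genes whose Rpb2 values are described in the next paragraphs. Long runs are more frequent among them than among the 58 promoters. Each window is 30 bases long, 5′ to 3′ on the strand of the gene, with the annotated start at base 16. Capitals mark the longest pyrimidine run that reaches within 5 bases of the start. The runs of 14 bases in *Rpl4* and *Rpl13a* continue past the window edge and are marked only within it.
Rps9, chr7:3704026-3704055, plus strand: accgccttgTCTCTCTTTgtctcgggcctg
Rps27, chr3:90213634-90213663, minus strand: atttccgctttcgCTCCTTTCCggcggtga
Rpl13a, chr7:45128731-45128760, minus strand: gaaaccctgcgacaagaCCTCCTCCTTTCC
Rps12, chr10:23787195-23787224, minus strand: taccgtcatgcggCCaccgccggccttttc
Rplp0, chr5:115559452-115559481, plus strand: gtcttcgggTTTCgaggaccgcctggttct
Rps6, chr4:86857353-86857382, minus strand: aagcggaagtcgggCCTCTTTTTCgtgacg
Rpl4, chr9:64173372-64173401, plus strand: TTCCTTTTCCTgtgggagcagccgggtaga
Rpl35, chr2:39005117-39005146, minus strand: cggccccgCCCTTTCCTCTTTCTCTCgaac
Rps10, chr17:27635230-27635259, minus strand: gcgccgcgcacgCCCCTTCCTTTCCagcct
Rpl39, chrX:37085208-37085237, minus strand: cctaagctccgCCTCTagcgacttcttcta
The run was 9 bases long in *Rps9* and *Rps27*, 10 in *Rps6*, 13 in *Rps10* and 18 in *Rpl35*. It was 2 in *Rps12* and 4 in *Rplp0*, although the last pair ranked among the 6 highest for Rpb2. The run of 14 bases in *Rpl4* ended upstream of the annotated start. Among other genes described below but not shown, the run was 1 in *Rpl10*, 2 in *Rps3* and *Rpl11*, and 3 in *Rpl5* and *Rpsa*. It was 4 in *Rps19* and *Rpl35a*, 10 in *Rplp2* and *Rpl38* and 14 in *Rpl14*. A long tract at the annotated base was thus not shared by all of the genes most occupied by Rpb2, and the annotated base need not be the one used in microglia.

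Short motifs were counted over the whole promoter window of 300 bases, from 250 before to 50 after the start, on both strands. The ETS core CCGGAAG occurred in 23 of 58 ribosomal protein promoters (39.7%) and in 11.9% of all promoters. The YY1 core AAGATGG occurred in 9 (15.5%) against 6.37%, and the Sp1 box GGGCGG in 35 (60.3%) against 46.3%. The pyrimidine stretch CTTTT, which is frequent by its base composition, occurred in 32 (55.2%) against 51.0%. TATAAA was found in 5 (8.62%) against 13.3%. These are letter matches and not measured binding sites.

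Coordinates were used next to ask which of the 79 core genes had a peak within 150 bp of the TSS, whatever name the peak carried. Rpb2 peaks lay within 150 bp of a RefSeq start of 75 of 79 genes (94.9%), against 36.4% of 21000 protein-coding genes. *Rpl21*, *Rpl22* and *Rpl37* were among those with none, although *Rpl21* had a peak centred 293 bp downstream. H3K27Ac peaks lay within 150 bp of a start of all 79 genes, against 51.6% of all protein-coding genes. The peak contained the start itself for 68 of the 75 genes with Rpb2 and for 77 of the 79 with H3K27Ac. The peaks within 150 bp were named only for a neighbour at 5 of the 75 genes for Rpb2 and at 15 of the 79 for H3K27Ac. The highly occupied peak named *Rps27rt* lies on chromosome 3 (90213506 to 90213715), at the start of *Rps27*, whereas the retrogene *Rps27rt* is annotated on another chromosome. It is described below as the *Rps27* promoter, but in the values by subunit it is counted with the other names and not with the small subunit. The Rpb2 peak at *Rps27a*, a ubiquitin fusion, was named for its neighbour *Clhc1*, that at *Rpl34* for the pseudogene Rpl34-ps1 and that at *Rpl26* for Gm15772. H3K27Ac peaks at *Rps18*, *Rps28*, *Rpl7a*, *Rpl13a*, *Rpl15*, *Rpl18*, *Rpl36a* and *Rpl41* carried neighbours' names and are not among the member rows.

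Rpb2 occupancy at ribosomal protein TSS peaks was high and spanned a wide range in WT microglia. For each gene name, the peak with the most reads within 1000 bp of the TSS was taken. Its level was expressed as CPM (reads scaled to the library's total in peaks, adjusted by its TMM normalization factor) per kb of peak width. The median over 77 names was 432 CPM per kb, against 184 for all 8350 genes with such a peak, which placed the median ribosomal protein gene at percentile 84.8. In the highest 10 percent of genes were 28 of the 77 (36.4%), and 7 lay below the median of all genes. Medians of the 77 in the separate pools were 451 and 419 CPM per kb in WT and 449 and 420 in KO. The small-subunit genes (28 names, median 455) and the large-subunit genes (42 names, median 459) were alike beside the spread between the WT pools, whose medians were 452 and 445 for the small and 458 and 432 for the large subunit.

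**Figure D1:**
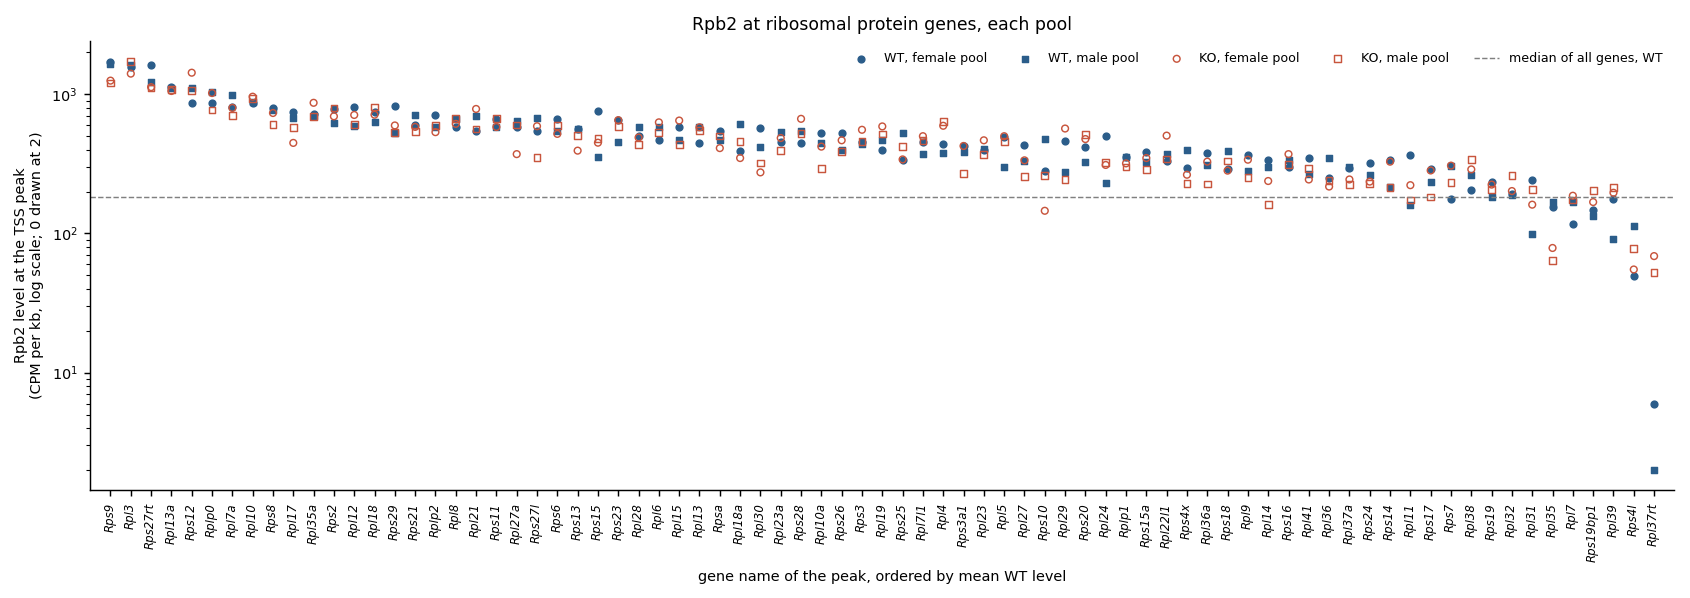
Rpb2 level in CPM per kb (log scale) at the main TSS peak of each of 77 ribosomal protein gene names, ordered by the WT mean; filled symbols are the WT pools, open symbols the KO pools, circles female and squares male, the dashed line is the WT median of all genes (184), and a value of 0 is drawn at 2. Most names lie above the line in all 4 pools, from *Rps9* at 1677 down to *Rpl37rt* at 3.0.

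*Rps9*, a protein of the small-subunit body that acts in decoding accuracy, had the highest level, with 1703 and 1651 CPM per kb in the WT pools and 1254 and 1204 in the KO pools. *Rpl3*, which lies at the peptidyl transferase centre, followed with 1573 and 1629 in WT and 1409 and 1731 in KO. The *Rps27* promoter, named *Rps27rt* in the table, had 1629 and 1229 in WT and 1126 and 1111 in KO. These 3 peaks exceeded every other member in both WT pools. *Rpl13a*, whose product is also released from ribosomes to silence inflammatory mRNAs, had 1128 and 1117 in WT and 1057 and 1078 in KO. *Rps12* had 872 and 1103 in WT and 1430 and 1061 in KO, and *Rplp0*, the base of the stalk that recruits elongation factors, had 866 and 1035 against 1022 and 773. Beyond the leading genes the order was loose, since the ranges of the WT pools overlapped in 70 of 76 pairs of neighbours. Across the 77 names the WT pools ranked alike (Spearman's rho = 0.84, from 2 libraries that share peak widths).

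The other stalk proteins and the genes with roles outside translation were spread over this range. *Rplp2* stood at 711 and 587 CPM per kb in the WT pools and *Rplp1* at 357 and 354. *Rpl10*, a late-joining protein of the large subunit, stood at 861 and 873. *Rps6*, the substrate of S6 kinase downstream of mTOR, had 662 and 549 in WT and 520 and 594 in KO, so the genotypes overlapped. *Rpsa*, also known as the laminin receptor, had 545 and 473, and *Rps3*, which has a further role in DNA repair, 457 and 436. *Rpl5* and *Rpl11*, which together with 5S rRNA bind MDM2 and link ribosome assembly to p53, had 494 and 300 and 367 and 161. These values for *Rpl11* differed more between the WT pools than between the genotype means of 264 and 198. *Rps14* and *Rps19*, the genes affected in 5q- syndrome and in many cases of Diamond-Blackfan anaemia, were lower, with 339 and 217 and 235 and 184, and so was *Rpl38*, which is required for translation of some Hox mRNAs, with 204 and 262.

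The lowest levels belonged to names outside the core set, with *Rpl39* as the lowest core gene at 178 and 91.1 CPM per kb in WT. The peak named *Rps4l* had 49.3 and 113. That named *Rpl37rt*, centred 796 bp from the start used by the authors' annotation, held 2 and 0 reads in WT, and no peak lay within 150 bp of the RefSeq start of that name. Of the paralogs, *Rps27l*, a p53-responsive paralog of *Rps27*, had 544 and 672, *Rpl7l1* had 457 and 370, and *Rpl22l1*, which can stand in for *Rpl22*, had 332 and 370. *Rps19bp1*, a binding partner of Rps19 and not a ribosomal protein, had 148 and 134. No peak within 150 bp of the start of *Rpl3l*, *Rpl10l* or *Rpl39l*, paralogs known from muscle and testis, was found in either table.

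The TSS peaks were narrow and sat just downstream of the start. The peaks of the 77 names had a median width of 236 bp, and their centres had a median position of 44 bp downstream, with quartiles of 19 and 79 bp. Centres fell between the start and 100 bp downstream in 54 of 77 (70.1%), against 44.3% of all genes. For the 69 H3K27Ac names the median width was 2163 bp and the median centre 10 bp downstream, with quartiles of -54 and 209 bp. Rpb2 peaks of 66 of the 77 names (85.7%) were called reproducibly in both genotypes, against 60.6% for all genes. For H3K27Ac the peaks of all 69 names were, against 79.6% for all genes.

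**Figure D2:**
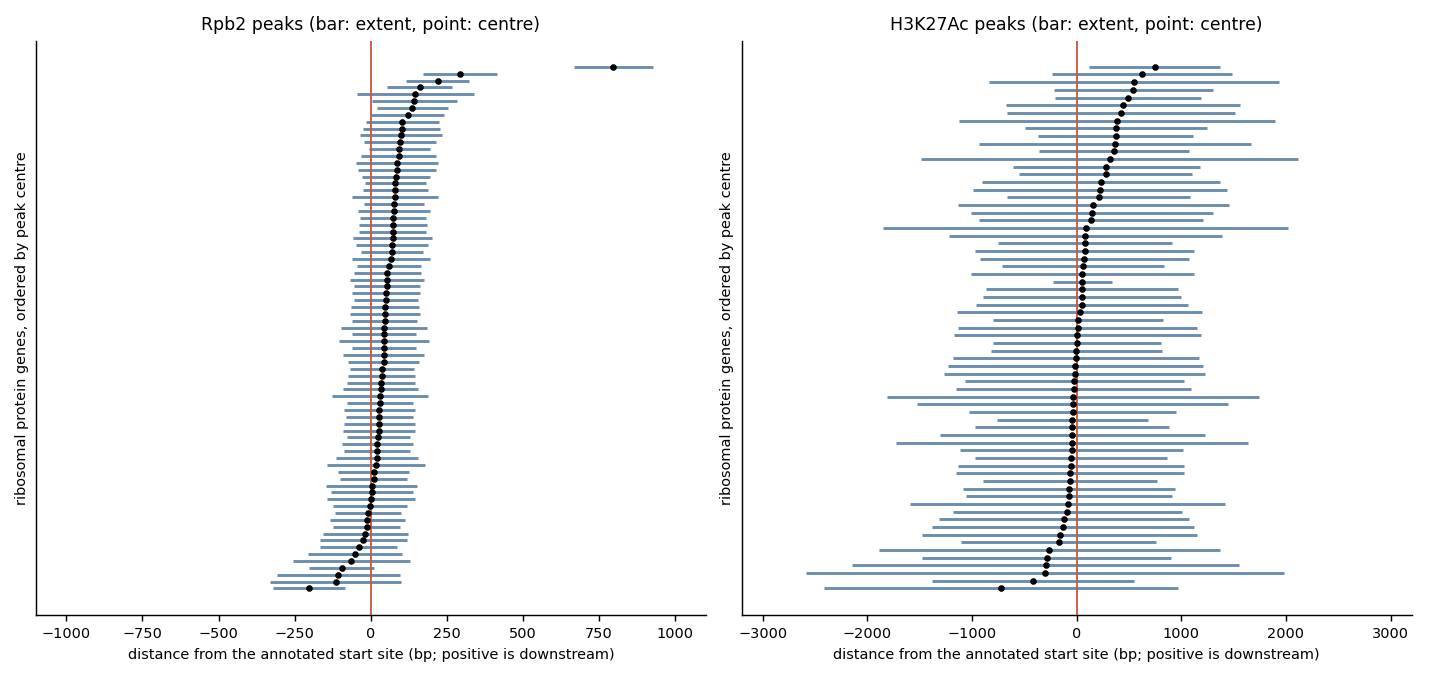
Extent (bar) and centre (point) of the main TSS peak of each ribosomal protein gene relative to the annotated start (line at 0; positive is downstream), for 77 Rpb2 names and 69 H3K27Ac names. Rpb2 bars are short and mostly centred within 100 bp downstream, whereas H3K27Ac bars extend over about the same distance on both sides; the Rpb2 bar far to the right is *Rpl37rt* at 796 bp.

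H3K27Ac at the same promoters was above the median of all genes but less extreme than Rpb2. The median over 69 names in WT was 16.0 CPM per kb, at percentile 76.2 of 9521 genes, with 8 names (11.6%) in the highest 10 percent and 15 below the median. With only the male pool, that is without the library labelled WT female, the median percentile was 69.0. The highest levels were those of *Rps25*, required for several viral internal ribosome entry sites, with 21.4 and 34.5 CPM per kb in the WT pools, *Rpl10a* with 20.3 and 29.5, and *Rplp2* with 24.1 and 25.7. *Rpl27a* had 30.1 and 17.1, *Rps14* had 20.8 and 24.6 and *Rpl19* had 20.0 and 24.7. The lowest were *Rps4x* with 6.41 and 5.11, *Rpl37a* with 4.78 and 6.95 and *Rpl39* with 5.27 and 7.37. *Rpl39* was thus the lowest core gene for Rpb2 and among the 3 lowest for H3K27Ac. The ranges of the WT pools overlapped in all 68 pairs of neighbours in the order, and the WT pools ranked the names less alike than for Rpb2 (rho = 0.44). Only peaks centred within 1000 bp of the start entered this ranking. The domain over *Rps9*, centred 2847 bp downstream with 407 and 915 reads in the WT pools, therefore did not.

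Across the 64 names with a TSS peak in both tables, Rpb2 and H3K27Ac levels in WT ranked loosely together (Spearman's rho = 0.41, Pearson's r = 0.41 of log2 values), against a rho of 0.51 over 6680 genes. Within the WT pools labelled female rho was 0.21 and within male pools 0.52 for the ribosomal protein names. The value of 0.21 rests on the Rpb2 library that went against its label and the H3K27Ac library with few reads in peaks. The points of each mark share their library and depth. *Rps14* shows the looseness, at percentile 68.9 for Rpb2 and 94.2 for H3K27Ac.

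Ribosomal protein genes were next set beside related gene lists, again by the main TSS peak in WT. Mitochondrial ribosomal proteins are encoded in the nucleus and serve the ribosome of the mitochondrion. They stood at a median of 157 CPM per kb for Rpb2 (57 genes, percentile 41.8). The proteasome list stood at 196 (31 genes, percentile 53.0), and was taken by gene name, so that it also holds *Psmc3ip*. The list called assembly factors stood at 212 (17 genes, percentile 56.5). It also holds the kinase genes *Mtor*, at 1.39, and *Rps6kb1*, at 683. The other TOP mRNAs and ubiquitin fusions, among them the elongation factor *Eef1a1* at 1759 and the poly(A)-binding protein *Pabpc1* at 815, stood at 375 (16 genes, percentile 80.1), the nearest of these lists to the ribosomal proteins. For H3K27Ac the order was another, with medians of 16.0 for both ribosomal proteins and assembly factors. Other TOP mRNAs stood at 14.4, the proteasome at 12.3 and mitochondrial ribosomal proteins at 11.1, against 11 for all genes. In the WT female and male pools the medians were 15.1 and 13.9 for ribosomal proteins, and 14.2 and 18.5 for assembly factors. Ribosomal protein names held 0.820% of the Rpb2 peaks within 1000 bp of a TSS but 1.62%, 1.51%, 1.67% and 1.58% of the reads in them, in the order WT female, WT male, KO female and KO male. For H3K27Ac they held 0.697% of such peaks and 0.822%, 0.813%, 0.795% and 0.822% of the reads. The genotypes overlapped for both marks.

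**Figure D3:**
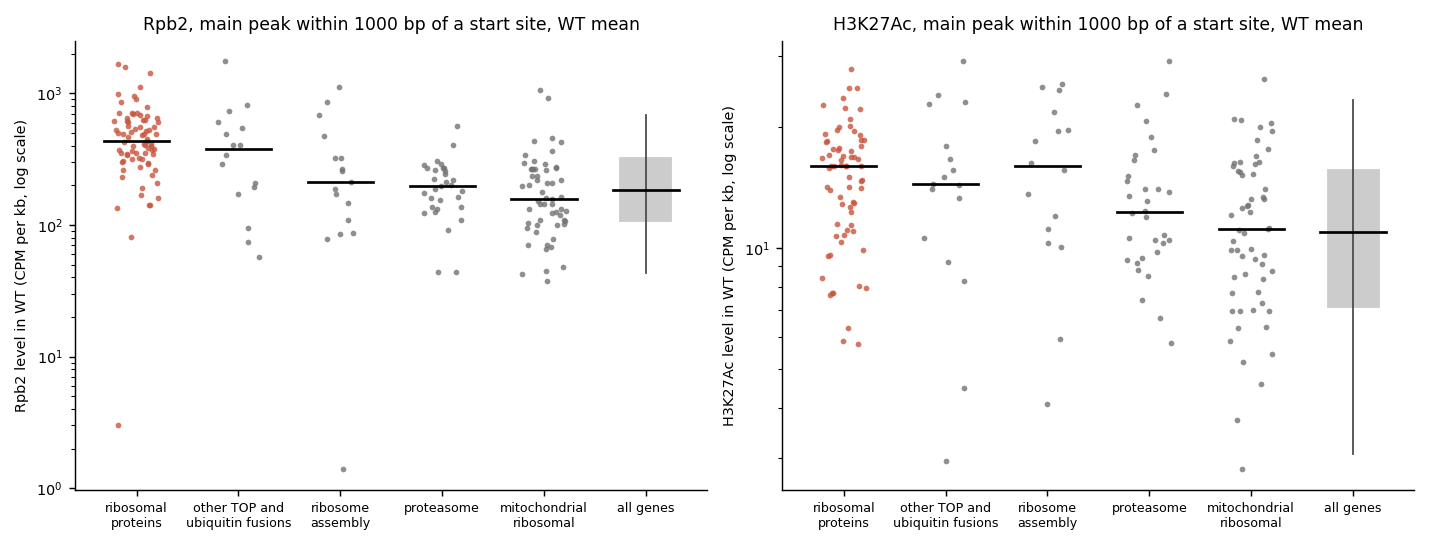
WT level (mean of 2 pools, CPM per kb, log scale) of Rpb2 and H3K27Ac at the main peak within 1000 bp of the TSS, each point a gene, black lines medians; for all genes the grey box spans the quartiles and the line the 5th to 95th percentile. For Rpb2 the medians are 432 for ribosomal proteins, 375 for other TOP mRNAs, 212 for assembly factors, 196 for the proteasome, 157 for mitochondrial ribosomal proteins and 184 for all genes.

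The comparison of KO with WT asked whether loss of Cx3cr1 altered polymerase occupancy at these genes. No ribosomal protein peak within 1000 bp of a TSS passed an adjusted p of 0.05 (0 of 83, edgeR's quasi-likelihood test, adjusted after Benjamini and Hochberg over 10125 peaks, 0% of them called). The median log2 fold change of the 83 peaks was 0.01, against 0.02 for all peaks. Scaled with the whole Rpb2 table instead, both medians were -0.11, so that the sign turned with the scaling. At an unadjusted p under 0.05 were 4 peaks higher and 2 lower in KO (7.23% of 83), against 10.6% of all peaks, 4.42% higher and 6.13% lower. In the fit of the whole table these were 2 higher and 4 lower, against 239 higher and 859 lower of all 10125 peaks within 1000 bp. DESeq2 called none of the 83 either, against 0.198% of all peaks. By CPM scaled with the whole Rpb2 table, WT and KO pools were without overlap at 34 of the 83 (41.0%), against 42.5% of all peaks. These were 14 with higher KO values, against 15.4% of all peaks, and 20 with lower ones, against 27.1%. In that scaling 5925 of the 10125 peaks and 47 of the 83 had a negative log2 fold change. In the fit of TSS peaks alone these were 4902 and 40. Small-subunit peaks had a median of -0.03 (29 peaks), large-subunit peaks 0.05 (47 peaks) and the other names 0.35 (7 peaks). Mitochondrial ribosomal proteins (63 peaks, median 0.03, 4 higher and 2 lower at an unadjusted p under 0.05), the proteasome (32 peaks, -0.01, 1 and 1), other TOP mRNAs (19 peaks, -0.21, 0 and 1) and assembly factors (23 peaks, 0.06, 1 and 1) had no called peak either. The standard error of a ribosomal protein peak was 0.28 in the median, against 0.44 for all peaks.

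The 5 peaks with the lowest p were those of *Rpl37rt*, *Rpl4*, *Rps12*, *Rpl35* and *Rps10*. Their CPM were scaled to reads in TSS peaks only, and so exceed CPM scaled with the whole Rpb2 table. *Rpl4*, a protein of the exit tunnel, had 176 and 151 CPM in the WT pools and 257 and 278 in the KO pools (163 ± 17.7 and 267 ± 14.5, SD, n = 2, log2 fold change 0.71, SE 0.26, adjusted p = 0.321). The KO pools both lay above the WT pools. *Rps12* had 324 and 407 in WT and 577 and 430 in KO (0.46, SE 0.21, adjusted p = 0.440). The lowest KO value was close to the highest WT value, and the difference ran from 0.25 to 0.66 when a pool was left out. *Rpl35*, which sits at the tunnel exit, had 69.0 and 75.4 in WT and 38.3 and 31.3 in KO (-1.05, SE 0.49, adjusted p = 0.460). A further *Rpl35* peak, centred 514 bp downstream, drew 33 and 25 reads from the WT pools, and 82 and 11 from the KO pools. *Rps10*, a protein of the small-subunit head, had 116 and 196 CPM in WT and 65.1 and 117 in KO (-0.80, SE 0.38, adjusted p = 0.467), so that the WT female and KO male values met. Without the library labelled WT female the *Rps10* difference was -1.12, and without the WT male library -0.36. The *Rpl37rt* peak drew 2 and 0 reads from the WT pools but 98 and 35 from the KO pools, a ratio of 25.2 by summed reads scaled to depth (95% counting interval 6.85 to 211) that did not pass (adjusted p = 0.158). It was called reproducible only in KO, whose female library was the deepest of the 4. None of these was called in the full comparison. Without the library labelled WT female, the *Rpl37rt* peak and a peak 612 bp downstream of the *Rpl35a* start, where the WT pools had 6 and 0 reads against 68 and 20, were called higher in KO (2.41% of 83), against 2.34% of all peaks. Without the WT male library none of the 83 was called, against 1.04% of all peaks.

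Outside the TSS windows, 75 Rpb2 peaks under 28 names were weak, with median reads of 18 in each WT pool and of 85 and 40 in the KO pools. By coordinates 9 lay within the named gene and 32 within 5 kb past its 3′ end, where polymerase is known to slow before release. Another 30 lay elsewhere and 4 on a chromosome other than that of the named gene, the last all under the name *Rps27rt* and inside *Nup210l*. These 4 lie 2637 to 5486 bp downstream of the *Rps27* start, and were not counted with the peaks past 3′ ends. Of those elsewhere, 13 lay inside another protein-coding gene, among them *Lyn*, for peaks named *Rps20*, and *Pxn*, for peaks named *Rplp0*. The 32 peaks past 3′ ends belonged to 19 names, and *Rpl37rt*, *Rps6*, *Rps9* and *Rps14* had 3 or 4 each. The 32 had a median log2 fold change of 0.54. Of these, 25 were called reproducible in KO only, with a median of 0.85, 5 in WT only, with a median of -0.88, and 2 in both. Of all 26706 Rpb2 peaks, 14148 (53.0%) were in the KO list alone and 13.7% in the WT list alone. Within 1000 bp of a TSS the KO list alone held 3638 of 10125 (35.9%), so its share beyond 1000 bp was above 53.0%. All peaks of the KO list alone, those near a TSS included, had a median of 0.51. The lists come from the same libraries, so the signs of these list medians carry no separate information. The 75 peaks had a median of 0.28, against 0.20 for all 16581 peaks beyond 1000 bp.

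None of the 158 Rpb2 peaks was called in the fit over the whole table (0.00749% of 26706 called), and 7 higher and 5 lower reached an unadjusted p under 0.05, against 12.2% of all peaks, 6.12% higher and 6.06% lower. DESeq2 called 2 of the 158 (1.27%), against 3.83% of all peaks, namely the *Rpl37rt* peak above and a peak 6667 bp downstream of the *Rps6* start. The latter had no WT read, against 29 and 52 KO reads, at least 9.39-fold higher when 3 reads are set against the summed WT pools (edgeR adjusted p = 0.198). A peak 3378 bp from the *Rps28* start, inside *Kank3*, had 0 and 1 WT reads against 59 and 40 KO reads, a ratio of 34.4 (95% counting interval 6.04 to 1374, adjusted p = 0.198). These 3 peaks were all called reproducible in KO alone. In the same fit the *Rpl35* TSS peak differed by -1.17 (SE 0.47, adjusted p = 0.347), and the *Rpl37rt* peak had an adjusted p of 0.213. The *Rps9* TSS peak differed by -0.45 (SE 0.18, adjusted p = 0.348). It had 349 and 338 CPM in WT and 257 and 247 in KO, scaled with the whole Rpb2 table. Leaving out the library labelled WT female gave 11 member calls (6.96%), against 8.28% of all peaks, with 10 of them higher in KO (6.33%), against 5.71%. Leaving out the WT male library gave 9 (5.70%), all higher in KO, against 7.35% of all peaks in either direction and 5.65% higher. These shares lie near those of the whole table. Under loess scaling the median of the 75 distal peaks was -0.01.

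H3K27Ac at ribosomal protein promoters did not pass the test between genotypes either. None of 156 member peaks was called (edgeR, 0.0233% of 55798 peaks called). At an unadjusted p under 0.05 were 4 higher and 5 lower, against 4.95% of all peaks, 1.35% higher and 3.60% lower. Likewise, none of 69 peaks within 1000 bp of a TSS was called (0% of 9904), and 2 higher and 2 lower had an unadjusted p under 0.05 (5.8%), against 3.55% of all peaks there. WT and KO were without overlap at 26 of 69 (37.7%), against 32.2% of all peaks. These were 15 higher in KO, against 20.2%, and 11 lower, against 12.0%. The median log2 fold change of the 69 peaks was 0.06 and that of all peaks within 1000 bp 0.05, but the sign of the former turned under other scalings, with -0.01 by the size factors of DESeq2 and -0.08 by loess. No member of the related lists was called within 1000 bp of a TSS. Their medians were 0.06 for mitochondrial ribosomal proteins, 0.13 for the proteasome, 0.15 for other TOP mRNAs and 0.05 for assembly factors.

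**Figure D4:**
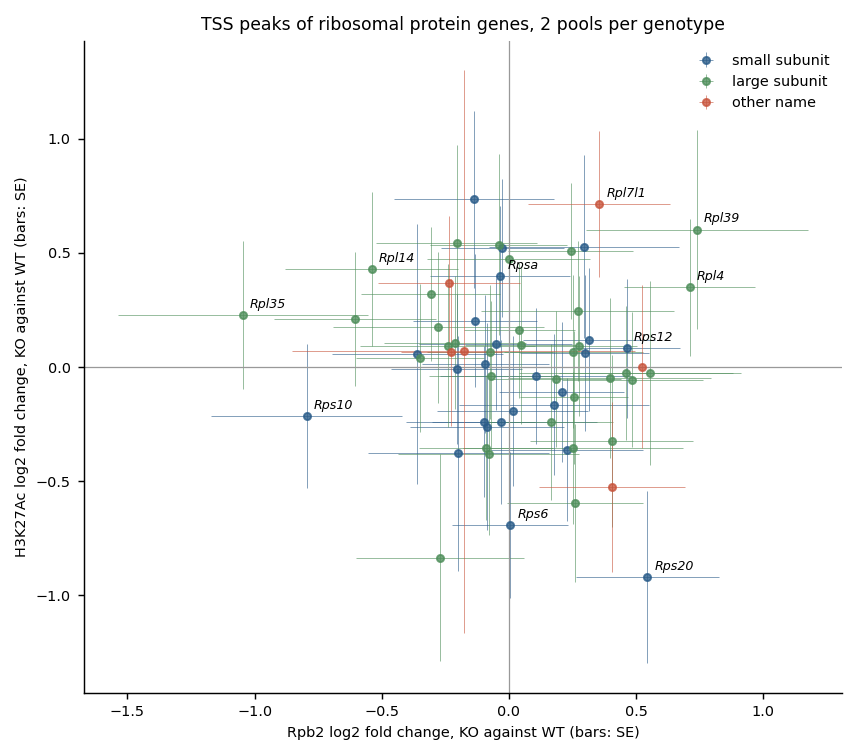
Log2 fold change, KO against WT, of Rpb2 (x) and H3K27Ac (y) at the TSS peak of the 64 ribosomal protein names with both, colored by subunit, with bars of 1 standard error. The points gather round 0 in both directions; *Rpl35* lies farthest left at -1.05 and *Rps20* lowest at -0.92, and no point is called for either mark.

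The lowest p belonged to the promoter of *Rps27a*, which encodes ubiquitin fused to a small-subunit protein. Its H3K27Ac domain of 4567 bp (chr11:29546059-29550625) had 39.8 and 32.8 CPM in the WT pools and 66.8 and 76.9 in the KO pools (36.3 ± 5.0 and 71.9 ± 7.15, SD, n = 2, log2 fold change 0.99, SE 0.30, adjusted p = 0.651). Both KO pools lay above both WT pools. DESeq2 gave an adjusted p of 0.0292 for this peak, in a fit that called 0.430% of all peaks. It was also called without the WT female library, where 1.53% of all peaks and 2 members (1.52%) were, and without the WT male library, where 14.8% of all peaks and 25 members (16.2%) were. It was not called without either KO library. Rpb2 reads at the same start were 174 and 186 for WT against 893 and 208 for KO (log2 fold change -0.07, adjusted p = 0.946). The domain also covers the start of *Clhc1*, for which that Rpb2 peak was named, so signal of the neighbouring promoters cannot be told apart.

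The other low p values were those of *Rps20*, *Rpl7l1*, an intergenic peak named *Rpl34* and a peak named *Rpl39l*. *Rps20*, a small-subunit head protein, had 37.3 and 18.7 CPM in WT and 13 and 16.4 in KO (-0.92, SE 0.38, adjusted p = 0.811). Without the WT female library the difference was -0.36, and without the WT male library -1.34. Its WT pools differed by more than the gap between the WT male and KO male pools, and its Rpb2 peak differed by 0.54 (SE 0.28, adjusted p = 0.510), in the other direction. *Rpl7l1* had 19.5 and 32.8 in WT and 44.1 and 42.4 in KO (0.71, SE 0.32, adjusted p = 0.811), and the difference was 0.39 without the WT female library and 1.15 without the WT male library. *Rps6* had 45.2 and 38.4 in WT and 30.2 and 21.4 in KO (-0.69, SE 0.32, adjusted p = 0.811), with no overlap. For its Rpb2 peak the pools overlapped (320 and 263 against 273 and 313 CPM scaled to TSS peaks, 0.0047, SE 0.23). The peak centred at -143608 bp from the start of *Rpl34* had 6.78 and 8.79 in WT and 13.2 and 23.4 in KO (1.22, SE 0.50, adjusted p = 0.811). The peak centred at -5565 bp from the start of *Rpl39l* had 35 reads, all from the WT female pool by its label, and 0 from the other 3 (log2 fold change -8.45, adjusted p = 0.811). With 3 reads set against the summed KO pools, it was at least 30.5-fold lower in KO. That bound rests on the WT female library alone, since the WT male pool had 0 reads as well.

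**Figure D5:**
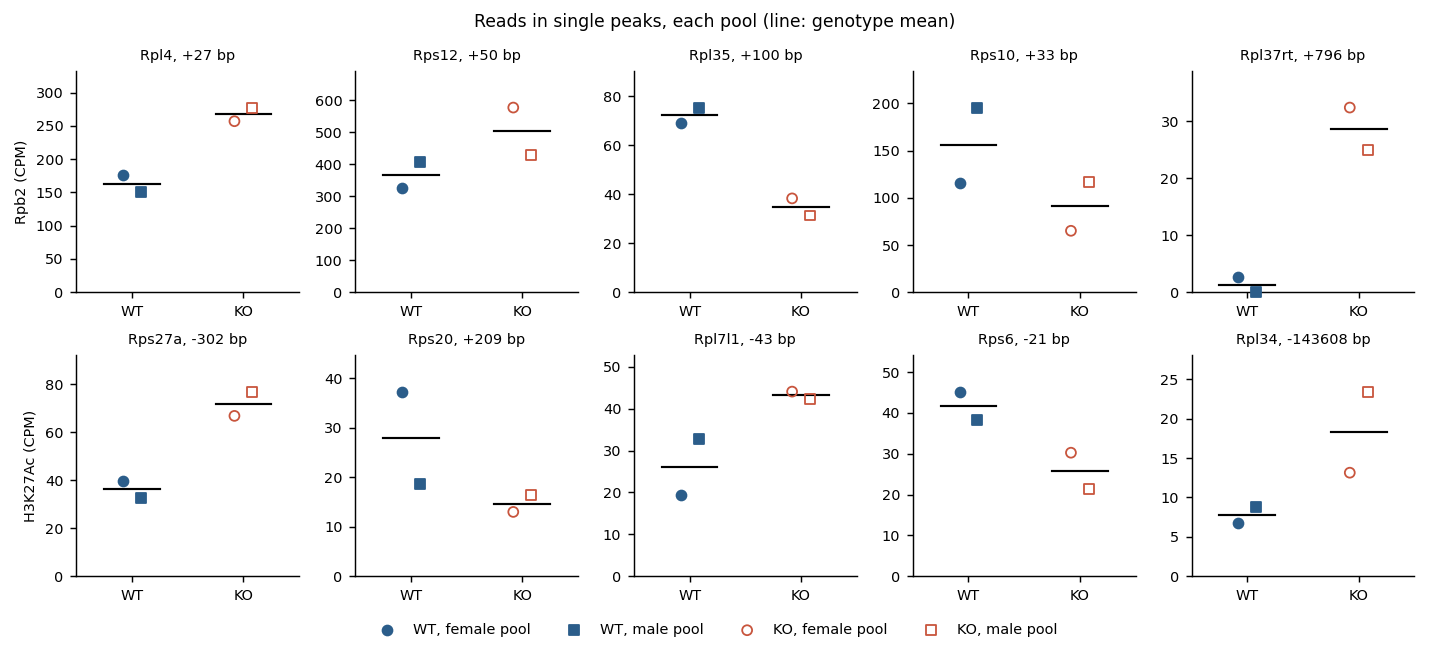
CPM in each pool for ribosomal protein peaks with low p, Rpb2 above and H3K27Ac below, with the distance of the peak centre from the annotated start. Rpb2 CPM are scaled to reads in TSS peaks. Filled symbols are WT, open KO, circles female, squares male, lines genotype means. The pools separate for Rpl4, Rps12, Rpl35, Rpl37rt, Rps27a, Rps20, Rpl7l1, Rps6 and Rpl34 and meet for Rps10, and none is called.

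Peaks called in WT alone were common among the H3K27Ac members away from promoters, as they were in the whole table. Of the 87 peaks beyond 1000 bp, 36 were called reproducible in WT alone. The WT list alone held 33.3% of all H3K27Ac peaks, and 5.18% of those within 1000 bp of a TSS, so its share beyond 1000 bp was above 33.3%. Peaks of that list had a median width of 501 bp and median reads of 20 in the library labelled WT female, against 0 in each of the other 3. Their median log2 fold change was -6.97, against -6.78 for all peaks of the WT list. Of the 87, 78 lay outside the named gene and beyond 5 kb of its 3′ end, and 28 of these inside another protein-coding gene. The strongest were domains in *Pxn*, named *Rplp0* (634 and 1518 reads in WT, 3468 and 3059 in KO), and in *Sppl3*, named *Rpl37rt* (803 and 1791, 3794 and 3475). These peaks carry a ribosomal protein name by distance alone.

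*Rpsa* and *Rpl14* lie on chromosome 9 near the targeted gene, with starts 59.5 kb and 503 kb from that of *Cx3cr1*. Their Rpb2 CPM were scaled to reads in TSS peaks. *Rpsa* had 204 and 176 CPM of Rpb2 in WT and 167 and 205 in KO (190 ± 20.2 and 186 ± 26.7, SD, n = 2, log2 fold change -0.03, SE 0.28, adjusted p = 0.984), so that the pools overlapped. Its H3K27Ac peak had 33.1 and 33.9 in WT and 50.8 and 37.3 in KO (0.40, SE 0.31, adjusted p = 0.817). *Rpl14* had 158 and 138 CPM of Rpb2 in WT and 120 and 81.8 in KO (-0.54, SE 0.34, adjusted p = 0.617). Its H3K27Ac peak differed by 0.43 (SE 0.34, adjusted p = 0.821), in the other direction. Neither gene passed the threshold for either mark.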

How the data were processed

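The deposited tables hold, per the file headers, raw read counts in merged peaks for each library. Per the labels and the study's methods, the authors aligned single-end reads of 51 nt to mm10 with Bowtie2, discarded reads that mapped to several places, used HOMER for peak calling, required peaks to reproduce between the 2 pools of a genotype and merged the WT and KO lists. Pseudogene copies are near-identical to many ribosomal protein exons, so counts over transcribed sequence are uncertain. Tool versions are not given in the sources used here. The 4 input libraries were not analysed here.

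KO was compared with WT using edgeR 4.0.16 (R 4.3.3) with TMM and the quasi-likelihood test, on counts of peaks whose mean reached 4 reads in WT or in KO. All Rpb2 peaks, the subset within 1000 bp of a TSS, and all H3K27Ac peaks were fitted separately, with Benjamini-Hochberg adjustment over each fit and a threshold of 0.05. DESeq2 1.42.0, other scalings, filters, a sex block, both-list peaks and left-out pools were alternatives. The fit was tested on simulated data. Per the study's methods brains were processed over several days with genotypes mixed, but no source used here ties a pool to a day, so p-values measure the spread between these pools. Counting intervals and floors of 3 reads cover counting error only.

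RefSeq annotation (GRCm38.p6, the build of mm10, with matching chromosome names and no peak past a chromosome end) gave starts and spans. Named genes were the 6 highest and 3 lowest per mark, the 5 lowest p per fit, paralogs with a peak and a list of genes of known role. *Rpl37rt* was added to the names outside the core set after its values were seen, as were *Rpl14*, *Rpl35a*, *Rpl21*, *Rpl22*, *Rpl37*, genes under a neighbour's peak and those neighbours and the members of the gene lists. Members, lists and tests were chosen with earlier results of these data known.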

Additional observations from a re-analysis of the deposited data

How the results depend on the processing

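Across 10125 Rpb2 peaks near a TSS, against 0 calls, DESeq2 gave 20, a minimum of 10 reads in every sample 7, and leaving out a pool 14 to 237, the highest without WT replicate 1. Called ribosomal protein peaks then ranged from 0 to 2 and their median log2 fold change from 0.015 to 0.13. Over all Rpb2 peaks, against 2 calls, DESeq2 gave 1022, the 10-read minimum 30, peaks in both lists 8, and leaving out a pool 0 to 2210. Called ribosomal protein peaks numbered 2 by DESeq2 and 0 to 11 without a pool. The distal median of 0.28 became -0.0055 with loess, 0.10 with 10 reads, 0.11 in both lists and 0.10 to 0.50 without a pool. For H3K27Ac, against 13 calls, DESeq2 gave 240, the 10-read minimum 1, peaks in both lists 0, peaks within 1000 bp of a TSS 0, and leaving out a pool 2 to 8157, the highest without WT replicate 2. Called ribosomal protein peaks numbered 1 by DESeq2 and 0 to 25 without a pool. Their TSS median of 0.06 became -0.0090 by the size factors of DESeq2, 0.0024 by total reads, -0.076 by loess, -0.0043 in the DESeq2 fit, -0.0080 with 10 reads, -0.0096 in both lists, -0.0038 with only TSS peaks and -0.037 to 0.069 without a pool. The median percentile in WT of 76.2 became 68.2 by CPM of the whole peak, 74.9 by library total and 68.2 to 69.0 without a pool, while that of Rpb2 stayed between 83.3 and 86.2. A lone pool was assumed to vary like the other genotype, and the cause of these shifts was not tested.

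The Rpb2 difference of *Rpsa* near 0 changed sign with 10 reads (0.0029), in both lists (0.017), without WT replicate 1 (0.076) and without KO replicate 1 (0.12), and ranged from -0.19 to 0.12 without a pool. That of *Rps6* did so by the size factors of DESeq2 (-0.0061), loess (-0.018), the DESeq2 fit (-0.0063), without WT replicate 2 (-0.13) and without KO replicate 2 (-0.098), and ranged from -0.13 to 0.15. With sex as a replicate block, calls numbered 24 near a TSS, 4 over all Rpb2 peaks and 12 for H3K27Ac, with 0 ribosomal protein peaks in each. The pools share only a sex label, and their deviations did not pair. For both marks the WT libraries held fewer reads in peaks than the KO libraries, so weak WT peaks rest on few reads.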
